A study of Mus musculus with 3 samples.

Results

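The transcripts of Prox1, Lyve1, Pdpn, Mmrn1 and Reln, 5 genes used to recognise lymphatic endothelium, were followed through all cells of the mouse iridocorneal angle and limbus. The genes were listed by symbol, with no threshold on their values, and they are 5 of the 31053 genes of the count matrices. All 5 were detected, in 437 (Prox1), 184 (Lyve1), 12664 (Pdpn), 113 (Mmrn1) and 420 (Reln) of the 26008 cells that the authors kept. Cells were read by the authors' 35 deposited cluster labels, among them SC (Schlemm's canal endothelium), LEC (lymphatic endothelium), EC2 to EC4 (blood endothelium) and TM1 to TM11 (trabecular meshwork and other stroma). These labels came from clustering on integrated values that include the 5 genes, so levels are compared between labels as a description, with no test. The study also named SC and LEC by these genes: SC for low Prox1 without Lyve1 or Pdpn, LEC for higher Prox1 with both. It took the small number of SC cells in the Angpt1 knockout as further evidence for the name SC.

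The 3 single-cell droplet libraries were made from limbal and iridocorneal angle tissue of mice aged 6 weeks. Of these, 2 were from Angpt1 flox/flox controls (control replicates 1 and 2) and 1 was from Angpt1 flox/flox;Wnt1Cre+ mice, called Angpt1ΔNC. All carried the floxed Angpt1 alleles on a mixed strain crossed onto albino ICR mice, and each pool held the eyes of 2 to 3 mice. Wnt1Cre deletes in the neural crest lineage, from which much of the angle's stroma derives and the vessel endothelium does not. The kept cells numbered 9076 and 10160 in the controls and 6772 in Angpt1ΔNC, with median depths of 6329.5 to 7444 UMIs (unique molecular identifiers, each a counted RNA molecule). Angpt1 fell from 37.8 and 39.3 CPM (UMIs scaled to a common library size) in the controls to 0.391 in Angpt1ΔNC, and Xist, a marker of female cells, stood at 0.0390, 0.0249 and 652, so although the study describes each pool as of both sexes, genotype, pool and the sex of the mice cannot be told apart. Between 13 and 25 barcodes of kept cells were shared by any pair of libraries.

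Prox1 is the transcription factor that sets and maintains lymphatic endothelial identity. Lyve1 is a hyaluronan receptor and Pdpn a mucin-type glycoprotein, both on the cell surface, and Mmrn1 (multimerin 1) and Reln (reelin) are secreted glycoproteins. Lymphatic capillaries make all 5, but few of the genes are private to them: Lyve1 also marks perivascular tissue macrophages, Pdpn is made by many epithelia and stromal cells, and reelin is best known from the nervous system. Schlemm's canal, the vessel that drains aqueous humour, arises from blood vessels and takes on part of the lymphatic programme, Prox1 included.

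On the mouse genome build GRCm38, the GENCODE annotation places Prox1 on chromosome 1 (190118035 to 190170714, minus strand), Lyve1 on 7 (110850607 to 110863239, minus), Pdpn on 4 (143267431 to 143299564, minus), Mmrn1 on 6 (60924976 to 60989378, plus) and Reln on 5 (21884454 to 22344702, minus). The 250 bases before a RefSeq transcription start (build GRCm38.p6) are shown for Prox1 and Mmrn1, whose levels ran most alike over the labels among the 5 genes, and for Pdpn, which departed most from both. All are written 5′ to 3′ on the strand of the gene. Capitals mark matches, on either strand, to 4 strings chosen for kinds of factor known in lymphatic endothelium. The string for SOX factors was AACAAT, which 9.42% of the 32851 promoters in the RefSeq table held in the same window. For ETS factors it was AGGAAG, held by 29.5% of them. For GATA factors it was AGATAA, held by 9.99%. For nuclear receptors it was AGGTCA, held by 14.0%.
Prox1, chr1:190170828-190171077: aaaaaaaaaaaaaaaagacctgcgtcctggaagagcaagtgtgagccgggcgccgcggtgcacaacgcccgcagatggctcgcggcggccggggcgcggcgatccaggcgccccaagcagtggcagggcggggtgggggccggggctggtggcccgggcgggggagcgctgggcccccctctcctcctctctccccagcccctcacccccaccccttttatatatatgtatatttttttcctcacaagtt
Mmrn1, chr6:60944067-60944316: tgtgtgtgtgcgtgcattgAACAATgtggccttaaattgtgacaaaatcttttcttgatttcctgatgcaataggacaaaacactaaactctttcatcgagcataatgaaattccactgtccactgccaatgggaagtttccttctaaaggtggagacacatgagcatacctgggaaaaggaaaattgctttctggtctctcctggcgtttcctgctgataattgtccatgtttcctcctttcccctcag
Pdpn, chr4:143299565-143299814: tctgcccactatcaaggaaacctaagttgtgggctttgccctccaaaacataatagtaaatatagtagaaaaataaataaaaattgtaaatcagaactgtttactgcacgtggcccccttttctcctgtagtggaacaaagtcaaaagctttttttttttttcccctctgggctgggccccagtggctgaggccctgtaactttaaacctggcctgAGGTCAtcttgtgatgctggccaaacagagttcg
The Prox1 window held none of the 4 strings and 64.8% G and C, and the gene Prox1os spans it without an exon there. RefSeq gives Prox1 another start, whose window (chr1:190169516-190169765, not shown) also held none of the 4 strings, with 56.0% G and C, and lies inside Prox1 over an exon of Gm28172. The Mmrn1 window held 1 match to the SOX string, at position -231 from the transcription start, and 42.4% G and C, and it lies inside Mmrn1 in GENCODE but in none of its exons. The Pdpn window held 1 match to the nuclear receptor string, at position -34, and 43.2% G and C, and lies outside annotated genes. The 2 matches lie in different windows and overlap nothing, and a match is a string of letters and not a shown binding site.

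Prox1 was highest in LEC and next in SC, and then fell to a low level spread over stromal, mural and melanocyte labels. In LEC its mean level was 1.88 UMIs per 10,000 UMIs of the cell in control replicate 1 (3 cells), 1.47 in control replicate 2 (1 cell) and 3.16 ± 1.22 in Angpt1ΔNC (standard error over 12 cells). In SC it was 0.978, 0.871 and 0.350, with at least 1 UMI in 20 of 46, 28 of 63 and 4 of 15 cells. The SC shares, 43.5% (95% confidence interval 28.9 to 58.9), 44.4% (31.9 to 57.5) and 26.7% (7.79 to 55.1), have intervals that overlap, and these intervals cover counting error only. Shares move with depth, and after thinning each cell to 2000 UMIs the SC shares were 16.4, 13.2 and 6.39%.

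Outside the endothelium Prox1 was rare but stood above its level in limbal and corneal epithelium (clusters 4 and 5), from which free RNA was read. There 0 of 989, 0 of 1012 and 0 of 911 cells were positive, allowing shares of up to 0.303, 0.296 and 0.329%, although these cells were deep, at medians of 17717, 15168.5 and 15135 UMIs. In TM1 to TM11, at medians of 5913, 6377 and 7494 UMIs, 2.21, 2.14 and 1.85% of cells held Prox1, above the epithelial limit in every library. Among these, TM8 held 22 of 591, 24 of 612 and 8 of 155 positive cells, and TM9 8 of 204, 14 of 298 and 9 of 327. Cluster 8, named melanocytes by the study, held 24 of 839, 22 of 767 and 19 of 442 positive cells, and the pericytes of cluster 20 held 14 of 461, 14 of 512 and 1 of 222. Because these labels hold far more cells than SC, TM1 to TM11 together gave 34.7 and 34.4% of all Prox1 UMIs of the controls, more than the 25.6 and 24.9% that came from SC. With each cell weighted equally these shares were 42.2 and 46.1% for TM1 to TM11 and 14.1 and 13.6% for SC. In Angpt1ΔNC the label LEC gave 45.6% of Prox1 UMIs, SC 4.66% and TM1 to TM11 21.8%. Equal weighting turned that order, at 22.9% for LEC, 3.16% for SC and 33.8% for TM1 to TM11, and 74 of the 88 LEC UMIs lay in 2 cells.

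**Figure D1:**
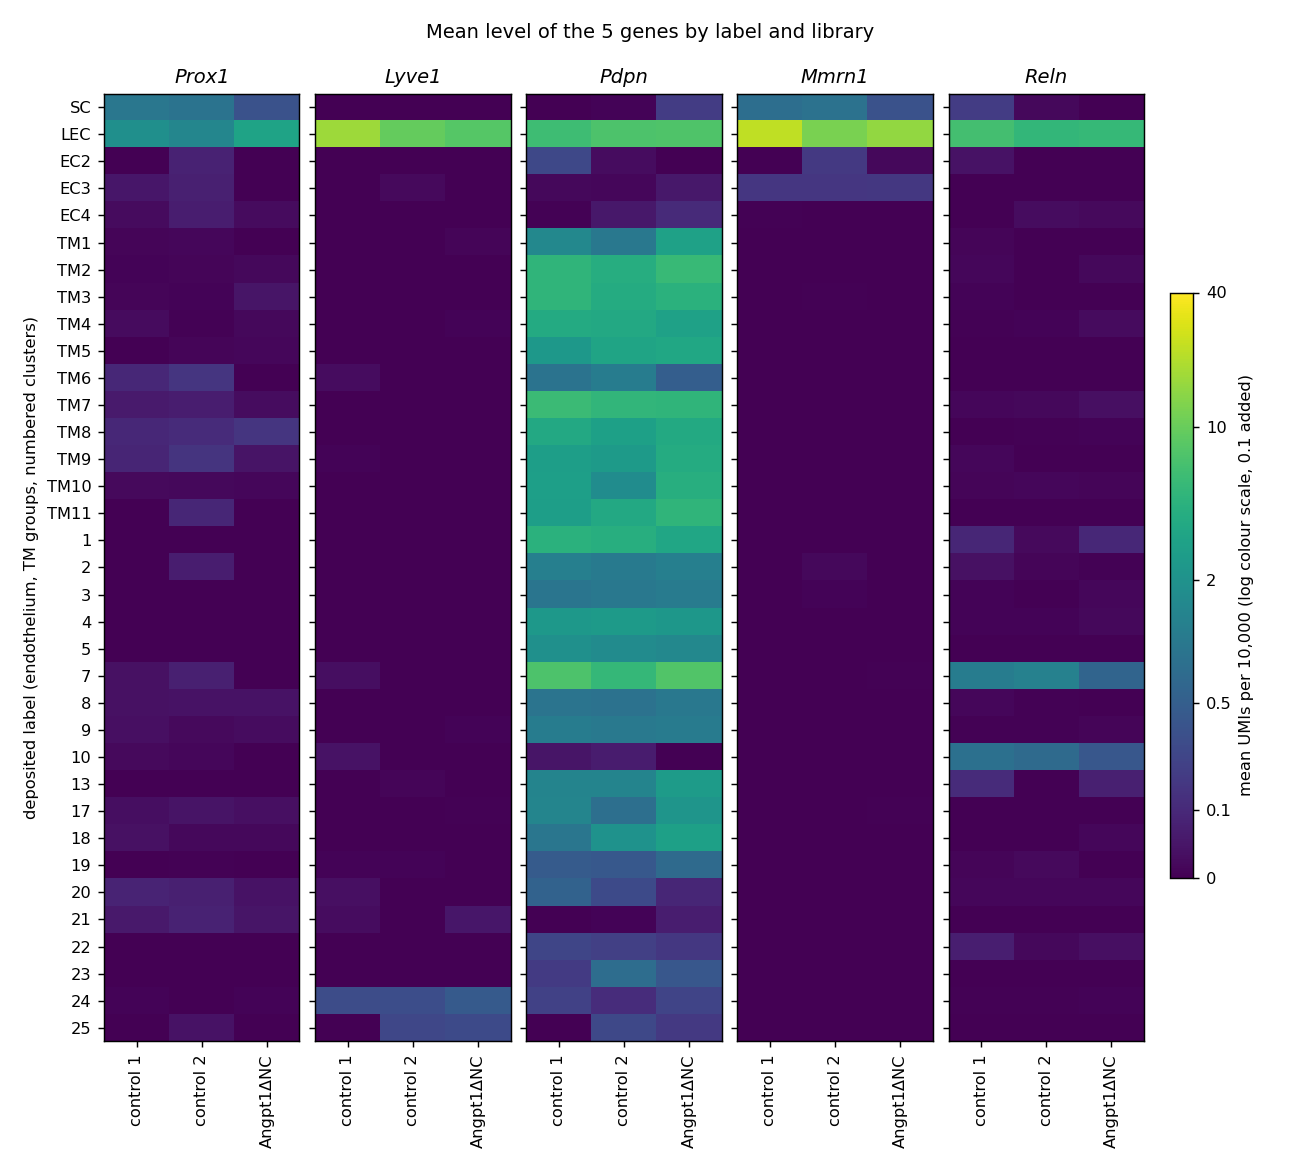
Mean level of each gene (UMIs per 10,000, colour on a log scale with 0.1 added) in the 35 labels (rows) and 3 libraries (columns of each panel). LEC is bright for all 5 genes, SC for Prox1 and Mmrn1, cluster 24 for Lyve1, clusters 7 and 10 for Reln, and most stromal and epithelial labels for Pdpn.

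Lyve1 came mainly from macrophages in the controls, and in Angpt1ΔNC the leading source depended on how cells were weighted. Clusters 24 and 25, named monocytes by the study, gave 75.0 and 88.3% of its UMIs in control replicates 1 and 2 and 42.3% in Angpt1ΔNC, where LEC gave 54.7%. With each cell weighted equally clusters 24 and 25 gave 63.5, 93.6 and 63.7% and LEC 20.6, 3.93 and 32.2%, and 134 of the 168 LEC UMIs of Angpt1ΔNC lay in 2 cells. In cluster 24, 43 of 515, 54 of 659 and 43 of 401 cells were positive, at mean levels of 0.299 ± 0.0601, 0.314 ± 0.0547 and 0.443 ± 0.0834 UMIs per 10,000. All Lyve1 UMIs of clusters 24 and 25 lay in cells that also held a UMI of the macrophage marker list (Csf1r, Cd68, Adgre1, C1qa, C1qb, C1qc, Mrc1 and Fcgr1), and 29 of 43, 38 of 57 and 28 of 45 of these cells held Ptprc (CD45), a leukocyte marker. Of all cells of cluster 24, 100, 99.7 and 100% held a UMI of the macrophage list, so that overlap was nearly fixed in advance. Ptprc was held by 46.2, 52.5 and 58.6% of them. In LEC the mean level was 16.6, 9.56 and 8.19, with Lyve1 in 3 of 3, 1 of 1 and 9 of 12 cells. No Lyve1 UMI was counted in SC, in 0 of 46, 0 of 63 and 0 of 15 cells, which allows shares of up to 6.52, 4.76 and 20%. The lack of Lyve1 was among the grounds on which the study named SC, so this absence is no separate result. The epithelial background in clusters 4 and 5 was 2 of 989, 0 of 1012 and 1 of 911 cells. Of the blood endothelium, 2 cells of EC3 in control replicate 2 held 2 Lyve1 UMIs each, and 1 pericyte of cluster 20 in control replicate 1 held 7 with no UMI of the macrophage list.

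Within clusters 24 and 25, cells with Lyve1 differed from the rest in the same way in each library. The summed level of 8 resident tissue macrophage genes was 71.5, 71.9 and 71.7 UMIs per 10,000 in cells with Lyve1 (control replicate 1, control replicate 2 and Angpt1ΔNC) and 31.2, 31.7 and 29.8 in cells without, and each of the 8 was higher in all 3 libraries. Among them, the folate receptor Folr2 stood at 5.19, 2.76 and 3.44 against 0.390, 0.195 and 0.424. The coagulation factor subunit F13a1 stood at 4.18, 5.10 and 4.94 against 0.457, 0.439 and 0.973. The opposite held for antigen presentation: the sum of 5 genes was 37.0, 29.96 and 37.1 in cells with Lyve1 and 279, 283 and 245 in the others, and each of the 5 was lower in all 3 libraries. The class II chain H2-Ab1 was 3.54, 3.78 and 3.89 against 43.0, 47.5 and 39.7, and Cd74, the invariant chain, was 24.5, 19.4 and 25.1 against 169, 162 and 119. Cells with Lyve1 were somewhat deeper, at medians of 7491, 6798 and 7091 UMIs against 6274, 6267 and 6480, and the part of depth in these levels, which are per 10,000 UMIs, was not tested. These cells were split by a gene of the clustering, so the contrast is a description.

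**Figure D2:**
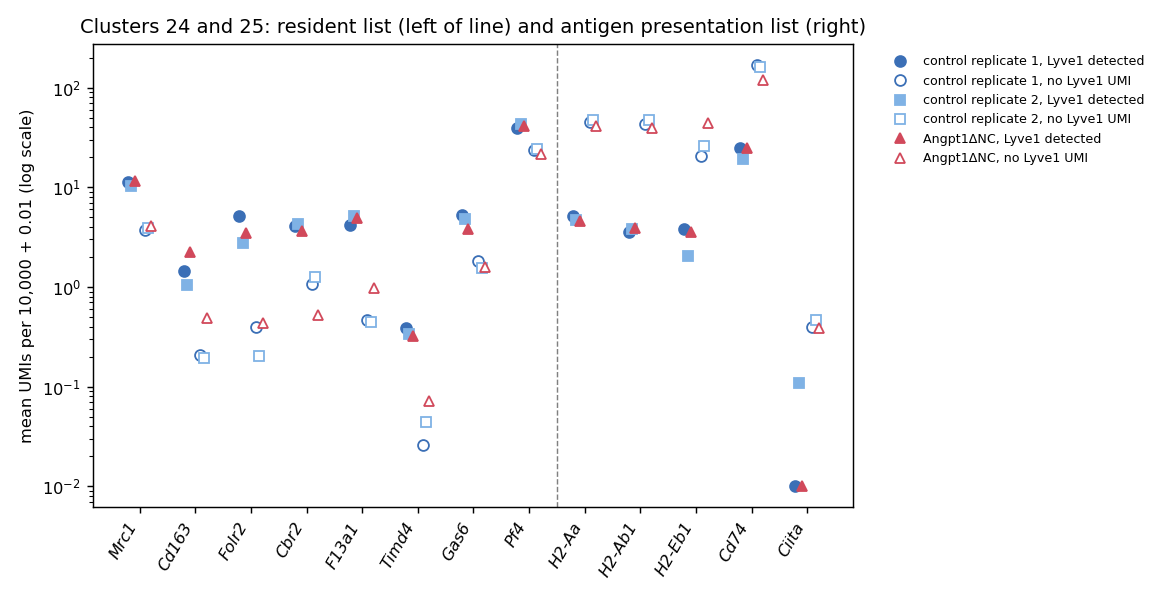
Mean level (UMIs per 10,000 plus 0.01, log axis) of 8 resident macrophage genes (left of the dashed line) and 5 antigen presentation genes (right) in cells of clusters 24 and 25 with Lyve1 (filled) and without (open), one symbol per library. Filled symbols lie above open ones for every resident gene and below them for every antigen presentation gene; Ciita was at 0 in cells with Lyve1 of control replicate 1 and Angpt1ΔNC.

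Pdpn was the least lymphatic of the 5 genes by source. LEC gave 4, 10 and 100 of its 16220, 14702 and 14858 UMIs, while TM1 to TM11 gave 44.4, 55.7 and 42.4% and clusters 4 and 5 gave 22.3, 22.2 and 20.9%. By level, LEC (6.08, 7.35 and 7.56 UMIs per 10,000) and the ciliary epithelium of cluster 7 (7.45, 5.31 and 7.75) stood side by side, and their ranges over the controls overlap. TM7 (5.78, 5.00 and 4.92), TM2 (4.88, 4.11 and 5.58), TM3 (4.88, 3.92 and 4.44) and the retinal pigment epithelium of cluster 1 (4.52, 4.20 and 3.41) followed. The limbal epithelium of cluster 4 stood at 2.35, 2.52 and 2.26 and the corneal epithelium of cluster 5 at 1.91, 1.70 and 1.54.

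SC and the blood vessels were nearly free of Pdpn, whose absence was also among the study's grounds for naming SC. In SC, 0 of 46, 1 of 63 and 1 of 15 cells were positive, the last with 5 UMIs, and in EC2 to EC4 6 of 246, 5 of 263 and 5 of 182 cells were. The shares for EC2 to EC4 were 2.44, 1.90 and 2.75%. In B and T cells (cluster 22), from which free RNA was read, 2 of 89, 3 of 133 and 7 of 105 cells were positive (2.25, 2.26 and 6.67%). These cells had lower depths of 2267, 2500 and 2531 UMIs, so the shares cannot be compared directly. Scaled to the depth of each cell, mean Pdpn was 0.246, 0.214 and 0.162 in cluster 22. It was lower in EC3 (0.0136, 0.0120 and 0.0466) and EC4 (0.00380, 0.0484 and 0.102). EC2 stood at 0.269, 0.0210 and 0, above cluster 22 in control replicate 1 only. Whether cluster 22 gives the free-RNA level of the vessels was not tested. Cluster 21 (vascular smooth muscle) held 0, 1 and 1 Pdpn UMIs, and cluster 10 held 4, 4 and 0.

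**Figure D3:**
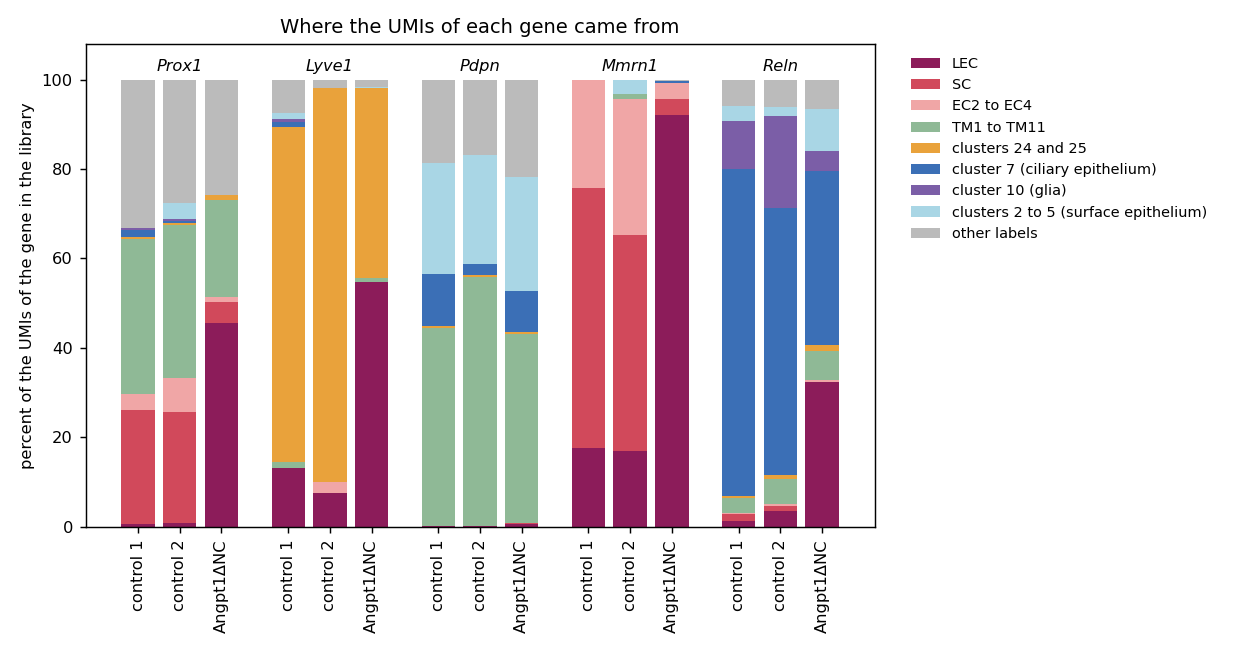
Percent of the UMIs of each gene that came from each kind of label, one bar per library. Mmrn1 is endothelial throughout, Lyve1 of the controls is mainly from clusters 24 and 25, Reln mainly from cluster 7, and Pdpn from stroma and surface epithelium, with a larger LEC segment in Angpt1ΔNC than in either control, least visible for Pdpn.

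Mmrn1 was the gene most restricted to endothelium, which held 74 of 74, 91 of 95 and 251 of 253 of its UMIs. It was detected in all 16 LEC cells, at mean levels of 22.3, 11.8 and 14.9 UMIs per 10,000. SC followed, at 0.766 ± 0.187, 0.847 ± 0.204 and 0.350 ± 0.300, with 20 of 46, 26 of 63 and 2 of 15 positive cells. EC3, a blood endothelial label, held a low and even level of 0.157, 0.157 and 0.165, with 14 of 118, 16 of 118 and 8 of 58 cells (11.9, 13.6 and 13.8%), whereas EC4 lay at 0.00424, 0 and 0. EC2 varied, at 0, 0.172 and 0.0137, with 0 of 32, 4 of 38 and 1 of 37 positive cells, so control replicate 2 stood at the level of EC3. Clusters 4 and 5 held no Mmrn1 UMI, the same limits as for Prox1 applying. Outside the endothelial labels the positive cells were single cells of cluster 2, cluster 3 and TM3 in control replicate 2 and of clusters 7 and 17 in Angpt1ΔNC.

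The cell of cluster 2 went against its label. This cell, of the cluster named limbal stem cells, came from control replicate 2 and held 35519 UMIs with 9 of Prox1, 2 of Mmrn1, 284 of the lymphatic chemokine Ccl21a and 173 of 6 pan-endothelial genes, against 1 UMI of 6 epithelial markers. It held no Lyve1, Pdpn or Reln. Without it, Prox1 was at 0 in cluster 2 of every library. In TM7, single cells with 8 (control replicate 2) and 3 (control replicate 1) Prox1 UMIs carried 87 and 61 UMIs of the stromal markers and 0 and 3 of the pan-endothelial ones.

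Reln had its main source in cluster 7, named ciliary epithelium by the study, and not in vessels. Cluster 7 held 136 of 316, 46 of 107 and 28 of 139 positive cells (43.0, 43.0 and 20.1%), at mean levels of 1.15 ± 0.119, 1.29 ± 0.183 and 0.595 ± 0.200 UMIs per 10,000, and 73.1, 59.8 and 38.9% of all Reln UMIs. The markers set for ciliary epithelium were detected there for 4, 3 and 3 of 6 genes, with sums of 14.3, 14.1 and 12.4 UMIs per 10,000. All 4 mural markers were detected too, with larger sums of 71.6, 58.9 and 35.6, and the name used here is the study's. Cluster 10, named astrocytes by the study and in which all 4 Schwann cell markers were detected (sums of 62.1, 66.6 and 92.9), came next, with 33 of 138, 29 of 148 and 9 of 70 cells and levels of 0.818, 0.698 and 0.414. LEC stood above both at 6.504, 5.147 and 5.493, but its 16 cells gave 1.23, 3.52 and 32.3% of Reln UMIs. In SC 5 of 46 (10.9%, 3.62 to 23.6), 2 of 63 (3.17%, 0.387 to 11.002) and 0 of 15 cells were positive, beside an epithelial background of 6 of 989, 3 of 1012 and 13 of 911 cells (0.607, 0.296 and 1.43%).

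Most cells that held at least 3 of the 5 genes carried the label LEC, and most others the label SC. At least 3 were detected in 2 of 3, 1 of 1 and 11 of 12 LEC cells, in 2 of 46, 3 of 63 and 1 of 15 SC cells and in 1 cell of cluster 24, 21 cells in all. No cell of the other 32 labels reached 3. In SC the pair that met was Prox1 and Mmrn1: 17, 19 and 2 cells held both, 3, 9 and 2 Prox1 alone, 3, 7 and 0 Mmrn1 alone, and 23, 28 and 11 neither. In EC3 Prox1 was rarer: 2, 1 and 0 cells held both, 3, 8 and 0 Prox1 alone, 12, 15 and 8 Mmrn1 alone, and 101, 94 and 50 neither. Cluster 7 paired Pdpn with Reln, and 133, 43 and 28 of its cells held 2 of the 5 genes. With cells thinned to 2000 UMIs, 8 cells held 3 or more, all of them LEC cells. Of the SC cells, 2 of 46, 0 of 60 and 0 of 15 then held 2 of the genes, and none held more. The pairing in SC was thus seen mostly at full depth, and the part of depth in it was not tested.

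The LEC label holds few cells, and depth ranged widely among them. Depth ran from 1485 to 50631 UMIs, and the deepest pair, both of Angpt1ΔNC (21153 and 50631 UMIs), held 81.3% of LEC Prox1 UMIs, 66.3% of Lyve1, 49.1% of Pdpn, 58.8% of Mmrn1 and 61.2% of Reln. Over all 16 cells the median levels were 2.02 UMIs per 10,000 for Prox1, 8.06 for Lyve1, 7.08 for Pdpn, 11.98 for Mmrn1 and 4.26 for Reln. Without the deepest pair the mean of Prox1 changed from 2.82 to 1.61, and those of the other genes from 9.86 to 8.04 (Lyve1), 7.27 to 7.25 (Pdpn), 16.1 to 14.7 (Mmrn1) and 5.66 to 5.38 (Reln). The cells were not alike: 3 of the 12 Angpt1ΔNC cells had neither Lyve1 nor Reln but did have Mmrn1 (3, 6 and 2 UMIs) and Pdpn (5, 4 and 14 UMIs). Ccl21a was at 2, 62 and 0 UMIs in these 3 and at 68 to 486 in the other 9. The gene has near-identical copies, so its counts are uncertain. Macrophage markers were at 0 to 3 UMIs in 15 of the 16 cells and at 9 in a control replicate 1 cell of 1771 UMIs.

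**Figure D4:**
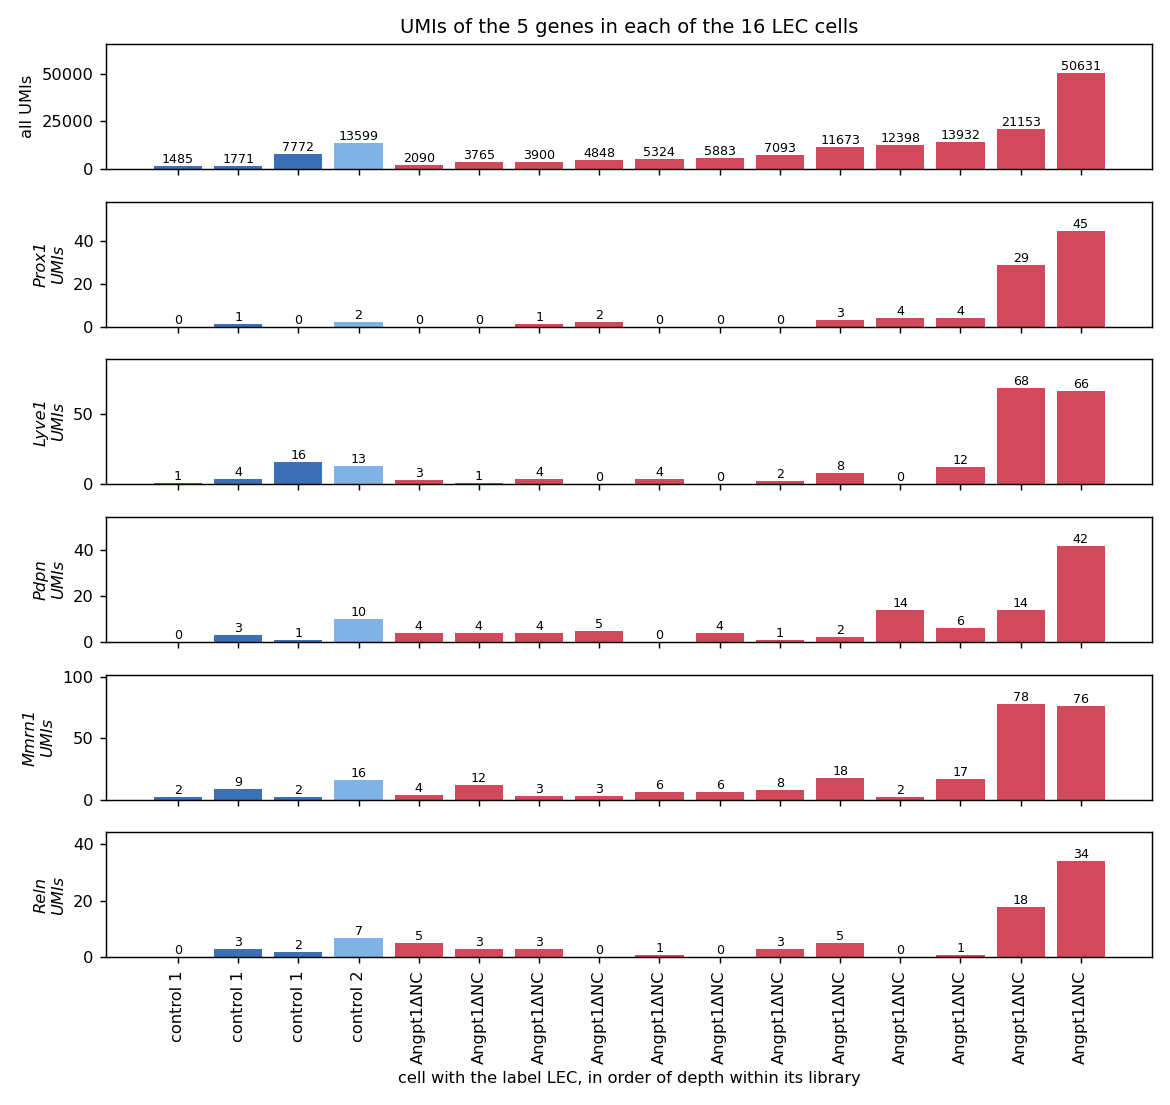
UMIs in all (top) and of each gene in the 16 cells labelled LEC, one bar per cell in order of depth within its library, with the count above each bar. The deepest pair of Angpt1ΔNC dominates the counts, while Mmrn1 is above 0 in every cell.

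Some genes of the wider lymphatic programme stood higher in SC cells with Prox1 than in SC cells without. For a list of 36 genes the sum was 180, 147 and 77.7 UMIs per 10,000 in cells with Prox1 and 109, 66.4 and 31.9 in the others. Of the 36 genes 20, 27 and 25 were higher with Prox1 in each library, and 12 were in all 3. Ccl21a, whose counts are uncertain, made up most of the gap between the sums in both controls, at 107, 71.5 and 20.8 against 47.7, 15.2 and 0. The transcription factor Maf stood at 3.75, 3.70 and 0.991 against 2.14, 1.23 and 0.248, and Flt4, the receptor of Vegfc, at 1.04, 1.10 and 0.611 against 0.878, 0.378 and 0.101. The cells with Prox1 were far deeper, at medians of 13237.5, 16331 and 16749.5 UMIs against 5885.5, 5058 and 6078, and the part of depth in this contrast was not tested.

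Genotypes were compared on UMIs summed per library (edgeR quasi-likelihood test, adjusted p under 0.05 over all genes tested, 2 control libraries against 1), which assumes that the lone Angpt1ΔNC library varies like the controls. In the endothelial labels together all 5 genes were called higher in Angpt1ΔNC, where 8.12% of all 9660 genes tested were. Prox1 counted 59, 84 and 99 UMIs, with a log2 difference of 1.26 ± 0.224 (SE, adjusted p = 9.98e-05). Lyve1 counted 21, 17 and 168 UMIs (log2 3.92 ± 0.247, adjusted p = 2.41e-14), and Pdpn 13, 17 and 110 (3.65 ± 0.277, adjusted p = 3.54e-12). Mmrn1 counted 74, 91 and 251 (2.39 ± 0.187, adjusted p = 6.3e-12), and Reln 12, 10 and 74 (3.51 ± 0.333, adjusted p = 5.49e-10).

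The make-up of the endothelium moved with these differences. LEC made up 3 of 295, 1 of 327 and 12 of 209 endothelial cells, and SC made up 46, 63 and 15 of them (15.6, 19.3 and 7.18%). In Angpt1ΔNC the 12 LEC cells held 168 of the 168 endothelial UMIs of Lyve1, 233 of the 251 of Mmrn1 and 88 of the 99 of Prox1. The summed counts thus depend on how many LEC cells each pool gave, as well as on the level per cell. With the label LEC left out, Prox1 was called lower in Angpt1ΔNC instead (58, 82 and 11 UMIs, log2 -1.74 ± 0.369, adjusted p = 0.00782), where 3.92% of all genes were. Mmrn1 then had 61, 75 and 18 UMIs (log2 -0.99 ± 0.317, adjusted p = 0.0625) and Pdpn 9, 7 and 10 (log2 1.22 ± 0.739, adjusted p = 0.345), while Lyve1 and Reln had too few UMIs to test. Of the 58, 82 and 11 Prox1 UMIs left, SC held 51, 63 and 9, and SC was a smaller part of the endothelium in Angpt1ΔNC. The part of this make-up in the Prox1 value was not tested. Leaving out only the 2 deepest LEC cells, a choice made after seeing the data, also turned Prox1 (59, 84 and 25 UMIs, log2 -0.65 ± 0.311, adjusted p = 0.188), and the other 4 genes were still called higher (7.95% of all genes were), at log2 1.68 (Lyve1), 2.69 (Pdpn), 1.09 (Mmrn1) and 1.84 (Reln). Prox1 in the full set was also not called with DESeq2 (adjusted p = 0.267).

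Within SC alone no difference in the 5 genes passed the test. Prox1 counted 51, 63 and 9 UMIs in 46, 63 and 15 cells (log2 -0.49 ± 0.455, adjusted p = 0.716) and Mmrn1 43, 46 and 9 (log2 -0.14 ± 0.474, adjusted p = 0.934), and the other 3 genes had too few UMIs. This is 0 of 2 genes tested with edgeR, where 3.03% of all genes were called, and 0 at an unadjusted p under 0.05. DESeq2 gave no adjusted p for either. Of the 9 Mmrn1 UMIs of Angpt1ΔNC, 8 lay in 1 cell of 17831 UMIs that also held 5 Pdpn and 138 Ccl21a UMIs. In the lymphatic programme 5 of 29 genes tested fell and 0 rose in SC, where 1.22% of all genes fell. Ackr2, a decoy receptor of chemokines, fell by 2.81 on the log2 scale (adjusted p = 0.00344), Maf by 2.50 (0.000432), Sema3a by 2.34 (0.0072), the tight junction gene Cldn5 by 1.36 (0.000638) and the sphingosine 1-phosphate receptor S1pr1 by 1.18 (0.0149). These falls rest on 15 SC cells of 1 Angpt1ΔNC library. Of the SC cells, 21 of 46, 28 of 63 and 11 of 15 held none of the 5 genes. Whether SC holds the same kind of cells in both genotypes was not tested. The median over the 29 genes was -0.06, beside -0.04 over all genes tested. The pan-endothelial markers (Cdh5, Pecam1, Tie1, Cldn5, Egfl7 and Emcn) summed to 65.8, 61.6 and 41.0 UMIs per 10,000 in SC. This sum holds Cldn5, one of the 5 falling genes, so it is not separate from these falls. The part of the other markers in them was not tested.

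In the other classes no member was called. The make-up of these classes also differed between libraries. TM7 made up 667 of 2803, 739 of 3324 and 174 of 1946 cells of TM1 to TM11. Cluster 5 made up 575 of 989, 505 of 1012 and 270 of 911 cells of clusters 4 and 5. In TM1 to TM11, 3 were tested, where 8.97% of all genes were called: Prox1 had 69, 87 and 42 UMIs (log2 -0.49 ± 0.297, adjusted p = 0.337), Pdpn 7195, 8196 and 6296 (0.11 ± 0.142, adjusted p = 0.681) and Reln 14, 11 and 15 (0.65 ± 0.608, adjusted p = 0.549). In clusters 4 and 5 (5.72% called) Pdpn had 3620, 3266 and 3099 UMIs (0.07 ± 0.151, adjusted p = 0.817) and Reln 8, 3 and 14 (1.57 ± 0.816, adjusted p = 0.294). In clusters 24 and 25 (5.39% called) Lyve1 had 120, 151 and 130 UMIs (0.44 ± 0.186, adjusted p = 0.191) and Pdpn 76, 56 and 75 (0.66 ± 0.296, adjusted p = 0.233). Leaving out either control moved the last value to between 0.24 and 1.10, and that of Reln in clusters 4 and 5 to between 0.95 and 1.75. Of these edgeR results, the 2 of clusters 24 and 25 had an unadjusted p under 0.05 and the 5 others did not. DESeq2 called 0 and gave no adjusted p for Reln.

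Single labels with at least 20 cells in each library (32 of 35) were also fitted alone, a choice made after seeing the data. Prox1 was tested in 7 of them, Reln in 3, and Lyve1 and Mmrn1 in 1 each, and edgeR called 0 of these 12 tests, 2 of which had an unadjusted p under 0.05. DESeq2 called 0 as well and gave no adjusted p for 7. Over the 32 labels the share of all genes called ran from 0 to 15.1%, with a median of 3.75%. The nearest to the threshold was Reln in cluster 7, at 296, 119 and 88 UMIs (log2 -1.37 ± 0.310, adjusted p = 0.104). The sums of the ciliary and mural markers of that cluster were lower in Angpt1ΔNC as well, and their part in this value was not tested. Mmrn1 in EC3 had 17, 23 and 8 UMIs (log2 0.12 ± 0.574, adjusted p = 0.947).

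Pdpn was called in single labels, and in both directions. It was tested in 26 labels and was higher in Angpt1ΔNC in 5 and lower in 1. Its CPM here are taken over the summed UMIs of the label, with TMM scaling. It rose in TM1 (329, 174 and 381 UMIs, or 161, 103 and 313 CPM, log2 1.28 ± 0.229, adjusted p = 3.46e-06; 1.95% of all genes rose there) and in TM10 (248, 192 and 455 CPM, log2 1.02 ± 0.214, adjusted p = 9.69e-05; 5.76%). It rose less in TM9 (258, 246 and 414 CPM, log2 0.71 ± 0.215, adjusted p = 0.011; 7.16%). In cluster 18 the values were 103, 193 and 302 CPM (log2 1.01 ± 0.273, adjusted p = 0.0274; 1.5%) and in cluster 13 they were 128, 150 and 250 (log2 0.94 ± 0.223, adjusted p = 0.00179; 2.21%). In all 5 labels the Angpt1ΔNC library lay above both controls. In the pericytes of cluster 20 it fell, from 113 and 73 UMIs in 461 and 512 cells to 9 in 222 cells (54.23, 32.03 and 9.42 CPM, log2 -2.14 ± 0.466, adjusted p = 0.00802), where 4.21% of all genes fell.

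None of these 6 calls held with DESeq2, whose adjusted p ran from 0.0616 (TM10) to 0.820 (cluster 18) with log2 differences of the same sign. DESeq2 instead called Pdpn in the stromal cluster 17 (340, 402 and 1095 UMIs, log2 1.20, adjusted p = 0.0242), where edgeR did not (log2 1.20 ± 0.305, adjusted p = 0.147, where 0.175% of all genes rose). In cluster 20 the stromal markers moved with Pdpn, summing to 13.9, 12.9 and 5.31 UMIs per 10,000, as did the pan-endothelial ones (6.55, 7.22 and 3.87), while the mural markers summed to 97.8, 103 and 89.2, and their part in the fall was not tested. In cluster 18 a single control library decided the size, at log2 0.65 without control replicate 1 and 1.54 without control replicate 2, and in TM1 it was 1.61 and 0.95. In TM2, TM3, TM4 and TM7 the log2 differences were 0.20 ± 0.177, -0.09 ± 0.207, -0.33 ± 0.198 and -0.17 ± 0.161, and none passed the test.

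**Figure D5:**
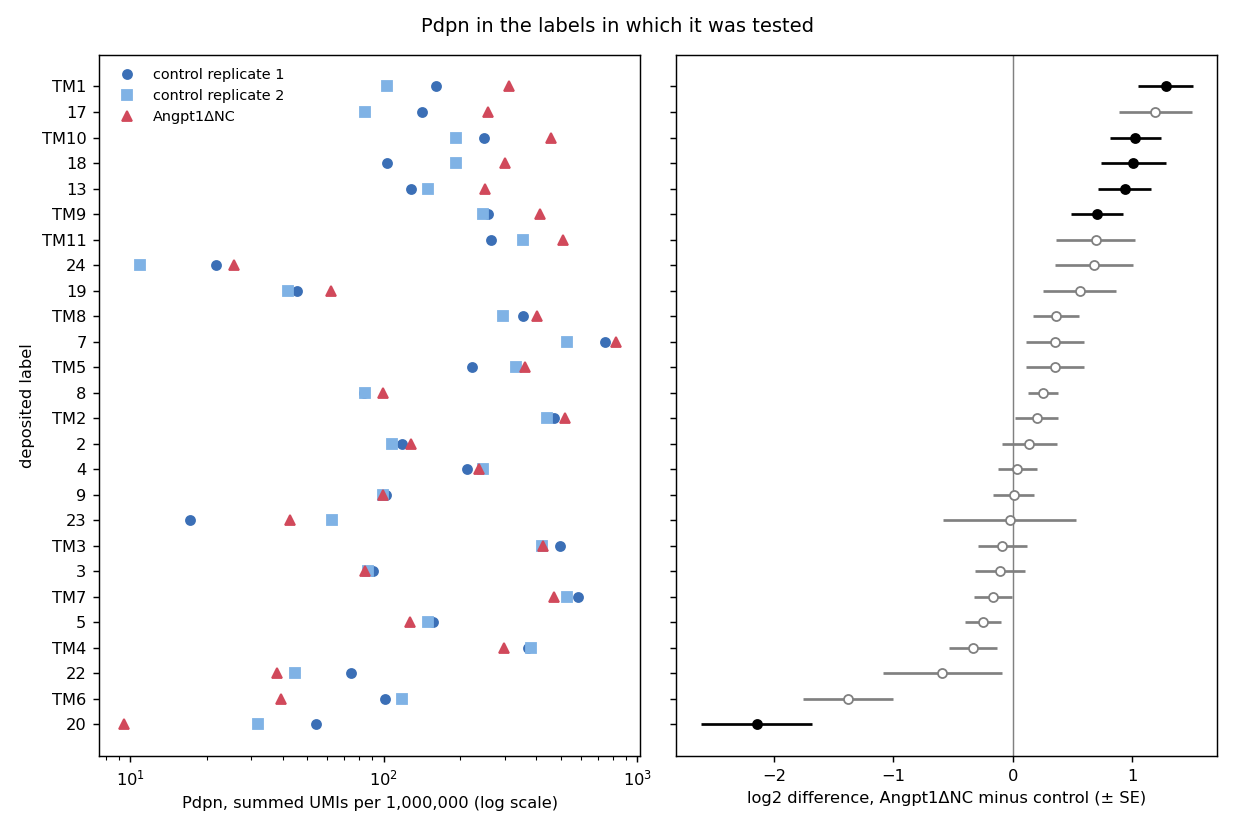
Pdpn in the 26 labels in which it was tested, ordered by the genotype difference. Left, summed CPM in each library (log axis); right, the log2 difference with its standard error, filled where adjusted p was under 0.05 (edgeR): TM1, TM10, 18, 13 and TM9 to the right of 0 and cluster 20 to the left.

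The rest of the pathway was measured from lists of 36 lymphatic programme genes, 14 ligands and matrix genes and 13 binding partners of the products of the 5 genes. In the endothelium 10 of 32 tested genes of the programme rose and 8 fell (8.12 and 4.82% of all genes did), with the LEC cells counted in (median log2 0.13, beside -0.02 over all genes). Those that rose included Fgl2 (79, 74 and 690 UMIs, log2 3.95), Nts (92, 32 and 170, log2 2.21) and Thy1 (3, 3 and 28, log2 3.94), all at higher levels in LEC than in SC: Fgl2 stood at 41.8 UMIs per 10,000 in LEC against 0.787 in SC, Nts at 8.30 against 0.394 and Thy1 at 2.34 against 0.0274. Among those that fell were Sema3a (120, 111 and 14 UMIs, log2 -2.26) and Ackr2 (359, 360 and 59, log2 -1.83), both present in SC, at 1.38 and 1.96 UMIs per 10,000.

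Of the binding partners, Clec1b, the platelet receptor of podoplanin, fell in the endothelium (46, 49 and 4 UMIs, log2 -2.76, adjusted p = 0.000304), and the tetraspanin Cd9 (log2 0.65) and moesin, Msn (log2 0.65), rose. This made 2 up and 1 down of 8 tested, where 8.12% of all genes rose and 4.82% fell. Of the ligands and matrix genes 0 rose and 2 fell of 7 tested there, Calcrl (log2 -1.07) and Emilin1 (log2 -1.56), beside the same shares of all genes. In TM1 to TM11 3 of 31 genes of the programme rose (Cldn5, log2 4.31, Gja4, 1.62, and Thy1, 1.17) and 3 fell, beside 3.46 and 5.52% of all genes. There, besides the targeted Angpt1, the adrenomedullin co-receptor Ramp2 fell (log2 -0.81, adjusted p = 0.0236), which made 2 of 13 ligands and matrix genes tested. Of the binding partners 1 of 10 tested fell, Has1, a hyaluronan synthase (5128, 8181 and 2358 UMIs, log2 -1.08, adjusted p = 0.0145). Both counts stand beside the 5.52% of all genes that fell there. In clusters 4 and 5 the partners Msn, Has3 and the reelin receptor Vldlr rose (3 of 11 tested, log2 1.35, 1.08 and 1.35, beside 2.81% of all genes). Of the other lists there, 1 of 17 programme genes rose and 1 of 6 ligands and matrix genes fell, where 5.72% of all genes were called either way. The mix of labels within TM1 to TM11 and within clusters 4 and 5 differed between libraries, and its part in these values was not tested. In clusters 24 and 25, 2 of 14 programme genes rose and 1 fell, and 2 of 4 ligands and matrix genes rose. None of the 7 partners tested was called there, where 5.39% of all genes were called either way.

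The genes whose levels ran most like those of each member over the 35 labels (Pearson correlation of log2 levels, all libraries summed, as a description) were mostly genes highest in LEC. For Prox1 they were Pkhd1l1 (r = 0.965), Mmrn1 (0.949) and Itih3 (0.940), and for Mmrn1 Pkhd1l1 (0.966), Itih3 (0.964) and Sgsm1 (0.964). Lyve1 ran with Epor (0.926), Scn3a (0.924) and Gm35439 (0.909), and Reln with Ttll13 (0.882), Styk1 (0.879) and Gm48551 (0.850). For Pdpn, r was lower, at 0.787 for Cacfd1, 0.775 for Lpgat1 and 0.749 for Srgap3. Without the label LEC, 3 of these 15 genes stayed among the top 3: Lyve1 then ran with macrophage genes, Ccl12 (0.983), Folr2 (0.977) and Aoah (0.973), and Mmrn1 with F8 (0.979), which encodes coagulation factor VIII, and Ackr2 (0.912). Between the members, Prox1 and Mmrn1 kept r = 0.813 without LEC, and the pairs of Lyve1 with the others changed from between 0.1004 and 0.830 to between -0.339 and -0.0648.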

How the data were processed

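The UMI counts were deposited by the authors as 1 matrix per library (Cell Ranger, named as version 2.1.1 in the submitters' processing notes and 3.0.2 in the matrix headers, build mm10) and are not normalized. The authors kept cells with at least 200 genes, at least 1000 UMIs and at most 10% mitochondrial reads, removed doublets with scDblFinder, and clustered integrated values in Seurat 3.1.3; their deposited cluster label of each kept cell was used as it stands. The values of the deposited cell tables, which are integrated and not counts, were not used. Per cell, levels are UMIs per 10,000 UMIs of that cell, averaged over cells with the standard error over cells. Shares carry exact Clopper-Pearson 95% intervals, and a count of 0 allows 3 cells, both for counting error only.

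For genotype, UMIs were summed per library and tested with edgeR 4.0.16 (quasi-likelihood, TMM factors, filterByExpr, Benjamini-Hochberg over all genes tested, threshold 0.05), with 1 residual degree of freedom. The libraries are pools of 2 to 3 mice, and only the 2 control pools give a spread between libraries. The test also shares its estimate of spread across genes, so a small p-value does not rest on the 2 control pools alone. The spread between Angpt1ΔNC pools was not measured. Alternatives were DESeq2 1.42.0, RLE factors, no filter, other choices of cells and leaving out each control. On simulated counts with 200 genes changed 4-fold, 93.5% (endothelium, 9622 genes), 72% (SC, 6399 genes), 96.5% (TM1 to TM11, 13838 genes), 93.5% (clusters 4 and 5, 12238 genes) and 90% (clusters 24 and 25, 9435 genes) were recovered, and of the calls made 6.97, 4.64, 11.5, 3.61 and 3.74% were false, in the same order. The changed genes were drawn only from genes above a minimum summed count, and all genes shared the same mean dispersion. These rates therefore do not cover genes with few UMIs. The 5 genes, the lists and the tests were chosen with earlier results of these data known. Named genes are the 5, the 3 most alike in pattern to each (at least 30 UMIs, log2 levels with 0.1 added), and list genes with at least 10 UMIs in SC or LEC or called in a fit. Promoter sequences matched 4 of the 5 genes in the RefSeq table, which held no entry for Lyve1.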

Additional observations from a re-analysis of the deposited data

Results flagged for a closer look

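The genotype difference of Pdpn was called in opposite directions in different labels with edgeR. The difference between labels was itself tested in 1 fit of the summed UMIs of both labels, with library as a block (edgeR quasi-likelihood test, Benjamini-Hochberg over all genes). The labels were picked after their own calls were seen, so these p-values are not independent of that choice. Each label called higher was set against cluster 20, the only label called lower, so a difference was nearly fixed in advance with either method. Cluster 20 minus TM1 gave a log2 difference of -3.38 ± 0.377 (adjusted p = 0.00286, with 0.788% of all genes called), and DESeq2 called it too (adjusted p = 0.00261). Cluster 20 minus TM10 gave -3.13 ± 0.384 (adjusted p = 0.00716, 1.47%; DESeq2 adjusted p = 0.0022), and cluster 20 minus TM9 gave -2.83 ± 0.427 (adjusted p = 7.51e-05, 3.28%; DESeq2 adjusted p = 0.0079). Cluster 20 minus cluster 18 gave -3.15 ± 0.444 (adjusted p = 6.1e-10, 2.28%) and cluster 20 minus cluster 13 gave -3.02 ± 0.526 (adjusted p = 0.00269, 1.41%), and DESeq2 called neither (adjusted p = 0.298 and 0.348). All 5 rest on the 9 Pdpn UMIs of cluster 20 in the Angpt1ΔNC library and on 1 library of that genotype. The stromal and pan-endothelial markers of cluster 20 were lower in that library as well, and their part was not tested.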

How the results depend on the processing

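No paired analysis was possible because nothing in the sample labels pairs a control library with the Angpt1ΔNC library. The replicate numbers only count libraries within a group. Prox1 and Mmrn1 turned from higher to lower in the endothelium without the label LEC (log2 -1.74 and -0.99) and in EC2 to EC4 alone (-1.96 and -0.69), and Prox1 also without the 2 deepest LEC cells (-0.65), an alternative chosen after seeing the data. By construction these leave out the cells that hold most UMIs of both genes in Angpt1ΔNC. In EC2 to EC4 alone few UMIs were left, 7, 19 and 2 of Prox1 and 18, 29 and 9 of Mmrn1. With DESeq2 the number of genes called was 238 in the endothelium, 45 in SC, 637 in TM1 to TM11, 439 in clusters 4 and 5 and 76 in clusters 24 and 25, against 1250, 194, 1251, 706 and 514 with edgeR. Without the filter on low counts it was 2441 in TM1 to TM11 and 1814 in clusters 4 and 5, and with equal cells per label 638 in TM1 to TM11. The cause of these changes was not tested.

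Weighting each cell equally put 14.1 and 13.6% of Prox1 in SC (controls), 63.5, 93.6 and 63.7% of Lyve1 in clusters 24 and 25, 56.8, 64.0 and 49.3% of Pdpn in TM1 to TM11 (all libraries), and 61.7 and 47.4% of Reln in cluster 7 (controls). Thinned to 2000 UMIs, 8 cells, all labelled LEC, held 3 or more of the 5 genes. With at least 2 Lyve1 UMIs the antigen presentation ratio of control replicate 1 was 0.0835, and without LEC 3 of the 15 most alike genes stayed. Leaving out either control compares 1 library with 1, with no test: in the endothelium Prox1 ran from 1.10 to 1.37, Lyve1 from 3.51 to 4.00, Pdpn from 3.39 to 3.51, Mmrn1 from 2.31 to 2.38 and Reln from 3.04 to 3.47, and Pdpn in cluster 20 from -2.36 to -1.64. The number of cells limits SC and LEC: 15 SC cells of Angpt1ΔNC allow a Lyve1 share of up to 20%.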
